A study of Homo sapiens with 15 samples.

Results

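SCIMP, CD180 and FCMR encode membrane proteins of immune signalling. Their levels were read in MV4-11, a human cell line derived from acute myeloid leukemia, as 3 of the 14812 genes named on the array. The genes were picked out because compounds lowered them to different degrees in these same arrays. Their levels and differences are therefore a description and carry no test, and each is read by a single array feature. Intervals and ranks given for them are not corrected for that choice. The cells were treated for 24 h with OTX015 at 300 nM, DW71177 at 300 nM, RVX208 at 5 uM, DW71374 at 300 nM or the vehicle DMSO, in RPMI1640 medium with serum. Each of the 5 groups held 3 arrays, 15 in all. OTX015, or birabresib, occupies both bromodomains of a BET protein. RVX208, or apabetalone, has a preference for the second of them. Code names alone identify DW71177 and DW71374, and the title of the study speaks of BET inhibitors. MV4-11 is 1 cell line, and the triplicate wells are not stated to be separate cultures, so the spread between arrays may be technical.

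BET proteins bind acetylated histone tails and bring the transcription elongation machinery to promoters and enhancers. SCIMP is a palmitoylated transmembrane adaptor that sits in tetraspanin-rich membrane domains and binds the kinases LYN and CSK and the adaptors GRB2 and BLNK. In macrophages it acts as a scaffold for Toll-like receptors, which sense microbial products. CD180, also called RP105, is a relative of the Toll-like receptors without their intracellular signalling domain, and it is carried to the surface with its partner MD-1, encoded by LY86. It activates B cells, and in mouse myeloid cells it restrains signalling by TLR4. FCMR is the Fc receptor for IgM, also called TOSO or FAIM3, found mainly on lymphocytes and first described as an inhibitor of death signalling through FAS.

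The promoter windows of CD180 and FCMR are shown because both genes were lower with OTX015 and with DW71177. RefSeq on GRCh38.p14 gave 1 window of 300 bases for CD180 and 2 for FCMR, which has 2 annotated starts, each from 250 bases before the start to 50 after it. SCIMP had no window in that table. The CD180 window is chr5:67196750-67197049, and the FCMR windows are chr1:206923147-206923446 and chr1:206921892-206922191, all on the minus strand and written 5′ to 3′ along the gene. Capitals mark matches, on either strand, to GAGGAA (the core bound by PU.1), GGAAGT (an ETS site) or TGTGGT (a RUNX site).
CD180: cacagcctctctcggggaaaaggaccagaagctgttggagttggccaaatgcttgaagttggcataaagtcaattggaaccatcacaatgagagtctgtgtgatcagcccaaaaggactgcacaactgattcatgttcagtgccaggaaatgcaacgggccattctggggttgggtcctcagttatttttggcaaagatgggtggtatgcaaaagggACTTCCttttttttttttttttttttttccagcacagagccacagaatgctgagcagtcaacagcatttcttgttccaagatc
FCMR upstream start: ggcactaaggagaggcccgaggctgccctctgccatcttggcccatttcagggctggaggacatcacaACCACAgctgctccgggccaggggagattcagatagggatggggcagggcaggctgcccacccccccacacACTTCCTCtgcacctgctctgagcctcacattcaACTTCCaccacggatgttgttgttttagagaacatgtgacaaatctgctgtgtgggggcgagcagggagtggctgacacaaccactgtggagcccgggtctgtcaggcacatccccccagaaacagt
FCMR downstream start: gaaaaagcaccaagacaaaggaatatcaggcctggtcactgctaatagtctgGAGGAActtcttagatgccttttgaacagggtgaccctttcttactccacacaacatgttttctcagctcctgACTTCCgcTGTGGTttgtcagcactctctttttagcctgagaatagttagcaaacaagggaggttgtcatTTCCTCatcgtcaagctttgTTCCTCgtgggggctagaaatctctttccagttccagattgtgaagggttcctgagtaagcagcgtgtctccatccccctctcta

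The FCMR windows held 1 match to GAGGAA at the upstream start and 3 at the downstream start, and the CD180 window held 0. This motif occurs in 27.9% of the 35114 windows in the table. GGAAGT occurred once in the CD180 window, 2 times at the upstream FCMR start and once at the downstream start, against 22.8% of all windows with a match. At the upstream start of FCMR 1 GGAAGT match overlapped the GAGGAA match. TGTGGT was present once in each FCMR window and absent from that of CD180, with 13.1% of all windows holding it. None of the 3 windows matched TATAAA (the TATA box, 11.5% of windows), GGGCGG (the GC box, 45%), GAAA repeated after any 2 bases (an IRF site, 3.57%) or CACGTG (the E-box bound by MYC, 7.26%). A match describes these letters and is not a binding site.

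The values are read as log2 signals normalized between arrays, both inferred from the values, so a change shared by most genes would not be seen. Array medians lay between 3.72 and 3.79 and upper quartiles between 5.25 and 5.28, and the correlation across genes between replicates was 0.992 to 0.995. Marker levels were checked against the label of the line. CSF1R, FLT3, LYZ and CD68 lay above the upper quartile on all 15 arrays, 4 of 7 measured myeloid markers of 10 listed. So did CD4 and NKG7, 2 of 7 measured T and NK cell markers, and KRT18 and VIM, 2 of 4 measured epithelial and stromal markers. Of 5 measured B cell markers, PAX5, BLK, CD22, CR2 and FCRLA, 0 lay above it on all arrays, and in limma 0 passed the test in any comparison made here, also at an unadjusted p under 0.05. The mean level of the B cell markers was 3.69 to 3.98 on the OTX015 arrays, 3.72 to 3.80 on the DW71177 arrays, 3.67 to 3.81 on the RVX208 arrays, 3.74 to 3.81 on the DW71374 arrays and 3.73 to 3.80 on the DMSO arrays. In an array of whole-culture RNA, fewer cells that express a gene and less RNA per cell cannot be told apart.

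SCIMP differed in steps between the treatments. Its signal was 5.78, 5.76 and 5.84 on the OTX015 arrays, 6.44, 6.57 and 6.41 with DW71177, 7.80, 7.83 and 7.77 with RVX208, 8.16, 8.19 and 8.11 with DW71374, and 8.16, 8.13 and 8.13 in DMSO. The groups other than DW71374 and DMSO did not overlap, and the SD within a group was 0.017 to 0.083. In order of level, DW71374 and DMSO stood together at the top, RVX208 came next at its own dose of 5 uM, then DW71177, and OTX015 was lowest. OTX015 left 19.7% of the DMSO signal on the linear scale, and single arrays ranged from 19.3% to 20.3%. That is a difference of -2.34 ± 0.056 on the log2 scale (SE of the limma fit, n = 3 and 3), 5.07-fold lower and the 7th largest fall among 14812 genes. With DW71177 31.5% remained, a difference of -1.67 ± 0.056 and the 11th largest fall. With RVX208 79.2% remained (-0.34 ± 0.056), and this fall ranked 488th.

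CD180 was lowered less. Its signal was 9.44, 9.48 and 9.42 on the OTX015 arrays, 10.10, 10.09 and 10.08 with DW71177, 10.71, 10.64 and 10.65 with RVX208, 10.79, 10.73 and 10.67 with DW71374, and 10.63, 10.66 and 10.71 in DMSO. The OTX015 and DW71177 arrays stood apart from all others and from each other, while RVX208, DW71374 and DMSO overlapped. OTX015 left 42.9% of the DMSO signal, a difference of -1.22 ± 0.053 and the 57th largest fall. DW71177 left 66.9% (-0.58 ± 0.053), and its fall ranked 350th. RVX208 at 5 uM left 99.8%, a difference of 0.00 ± 0.053 with a 95% interval of -0.12 to 0.11. The CD180 feature was bright, above 98.9% of all features on every OTX015 array, so low signal does not limit these folds.

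FCMR fell further with RVX208 than SCIMP or CD180 did. Its signal was 4.75, 4.99 and 4.61 on the OTX015 arrays, 4.80, 4.78 and 4.55 with DW71177, 5.34, 5.20 and 5.49 with RVX208, 6.98, 7.01 and 6.93 with DW71374, and 6.824, 6.997 and 6.979 in DMSO. OTX015 and DW71177 overlapped at the bottom, RVX208 lay above both without overlap, and DW71374 and DMSO overlapped at the top. The difference from DMSO was -2.15 ± 0.10 with OTX015, -2.22 ± 0.10 with DW71177 and -1.59 ± 0.10 with RVX208, which ranked 9th, 6th and 3rd among the falls of each comparison. FCMR retained 22.6% of the DMSO signal with OTX015, 21.4% with DW71177 and 33.2% with RVX208. Its replicate spread was the widest of the 3 genes, with an SD of up to 0.19 with OTX015. No background level was given, and the FCMR means with OTX015 and DW71177 were under 5, so its folds there are at best lower bounds. On those arrays it stood above 66.4% to 71.4% of features with OTX015 and 64.9% to 68.9% with DW71177, against 89.0% to 90.0% in DMSO.

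**Figure D1:**
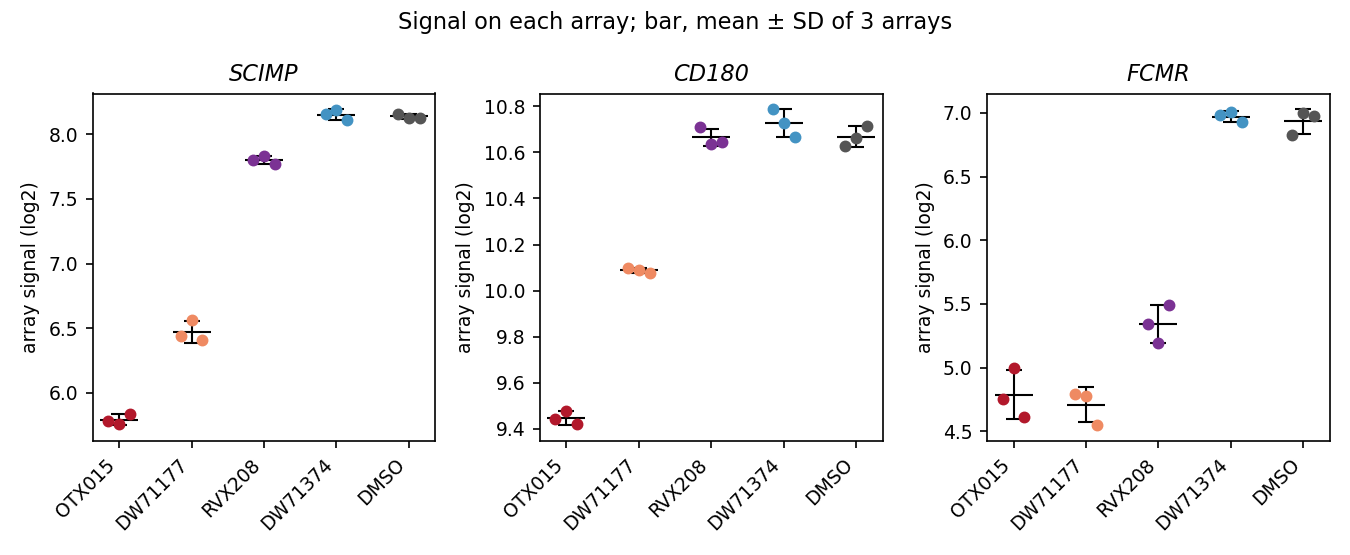
Signal of SCIMP, CD180 and FCMR on each array (points, log2 scale, axes not starting at 0) in 5 groups, with the mean and SD of 3 arrays as black bars. SCIMP is lowest with OTX015 and higher in turn with DW71177 and RVX208, CD180 is low with OTX015 and DW71177 alone, and FCMR is low with OTX015, DW71177 and RVX208.

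With OTX015 all 3 genes had every array below every DMSO array, as did 19.5% of the 14812 genes. The same held for all 3 with DW71177, where 16.2% of genes did so. With RVX208 it held for SCIMP and FCMR, 2 of the 3, against 13.3% of genes. With DW71374 it held for 0 of the 3, against 5.98% of genes. Every array lay above every DMSO array for 0 of the 3 with any compound, against 16.7% of genes with OTX015, 16.4% with DW71177, 12.7% with RVX208 and 4.69% with DW71374. Since the genes were chosen from these comparisons, nothing is read from those counts. DW71374 differed from DMSO by 0.01 ± 0.056 for SCIMP (95% interval -0.11 to 0.13), 0.06 ± 0.053 for CD180 (-0.05 to 0.17) and 0.04 ± 0.10 for FCMR (-0.19 to 0.26). The FCMR interval, the widest, runs from 0.879 to 1.20 times the DMSO level.

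**Figure D2:**
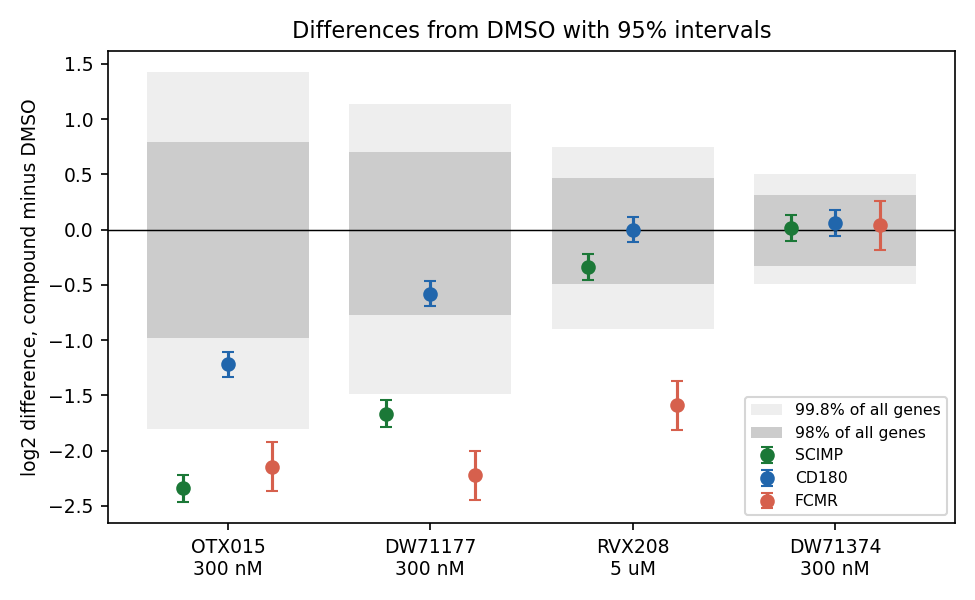
Log2 differences of SCIMP, CD180 and FCMR from DMSO for 4 compounds (points, with 95% intervals of the limma fit), over grey bands that hold 98% and 99.8% of all genes. SCIMP and FCMR lie below both bands with OTX015 and DW71177, FCMR alone does so with RVX208, and all 3 genes lie near 0 with DW71374.

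Among 300 nM treatments, 3 pairs of compounds could be set side by side at the same dose. DW71177 left SCIMP 1.60-fold higher than OTX015 did, at 6.47 ± 0.083 with DW71177 and 5.79 ± 0.041 with OTX015 (SD, n = 3 each), a difference of 0.68 with a 95% interval of 0.56 to 0.80. CD180 was 1.56-fold higher with DW71177, at 10.09 ± 0.012 against 9.45 ± 0.030 with OTX015 (0.64, interval 0.53 to 0.75). These 2 genes had every DW71177 array above every OTX015 array, as did 10.5% of genes, and ranked 9th and 15th among the differences in that direction. Their intervals ignore that the genes were chosen for such differences and are not read as tests. FCMR was at 4.71 ± 0.14 with DW71177 and 4.79 ± 0.19 with OTX015, a difference of -0.08 with a 95% interval of -0.30 to 0.14. Both means are under 5, so this interval does not bound the difference in RNA. The FCMR arrays of these groups overlapped, where 5.02% of genes had every DW71177 array below every OTX015 array. Without OTX015 replicate 2, the highest of its group, the FCMR difference was 0.03, and without DW71177 replicate 3 it was 0.00. Against DW71374, OTX015 differed by -2.36 for SCIMP, -1.28 for CD180 and -2.18 for FCMR, and DW71177 by -1.68, -0.64 and -2.26.

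Expressed as a share of the log2 fall with OTX015, the fall with DW71177 was 71.1% for SCIMP and 47.5% for CD180. No share is given for FCMR, whose falls with both compounds are at best lower bounds. OTX015 lowered 138 genes at least 2-fold with a limma call, these 3 included, and the median differences in that set were -1.16 with OTX015, -0.95 with DW71177, -0.50 with RVX208 and 0.00 with DW71374. Within it, the RVX208 difference ranked 3rd from the lowest for FCMR, 113th for SCIMP and 138th, the last place, for CD180. These comparisons share their DMSO arrays. The set was picked on its falls with OTX015, which favours OTX015 in the medians, so the order of the compounds there is not read as a result. The values place the 3 genes along the range of the set and are not a test.

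Likeness to each gene was measured as the root mean square distance between the differences from DMSO over 4 compounds, among the 140 other genes with a fall of at least 1 on the log2 scale. TGM5, a transglutaminase gene, was nearest to SCIMP at a distance of 0.13, with differences of -2.31 with OTX015, -1.72 with DW71177 and -0.57 with RVX208. SCD, which encodes the stearoyl-CoA desaturase, LINC00996 and the acyl-CoA synthetase gene ACSL5 followed at 0.26 to 0.31. Of the 12 nearest genes 4 were dim, under 5 in their lowest group, with TGM5 at 3.72, ACSL5 at 4.20, TMEM233 at 4.85 and OCSTAMP at 3.98. The genes nearest to CD180 were GINS2, part of the replicative helicase, TMEM233, the uracil-DNA glycosylase gene UNG and the transcription factor gene RUNX3, at distances of 0.11 to 0.13. Their differences were -1.11 to -1.02 with OTX015 and -0.19 to -0.09 with RVX208. FCMR had no neighbour so close, with DTX4 at 0.30, the autotaxin gene ENPP2 at 0.38, OCSTAMP at 0.44 and ZBTB33 at 0.45. In this group RVX208 gave -1.42 to -1.06, against -1.59 for FCMR. All neighbours were picked on differences that include RVX208, so their RVX208 values restate those of the gene they are near. FCMR was itself under 5 with OTX015 and DW71177, where its falls are at best lower bounds. All distances from FCMR carry that limit. The distance was 0.80 for SCIMP and CD180, 0.69 for SCIMP and FCMR and 1.23 for CD180 and FCMR. SCIMP, CD180 and FCMR were picked because compounds lowered them to different degrees, and their neighbours for the smallest distances. That these pairs lay farther apart than each gene and its neighbours follows from the choice and is not read as a result. Over the 15 arrays, which hold only 5 conditions, the signals correlated at 0.97, 0.85 and 0.74 in those pairs.

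**Figure D3:**
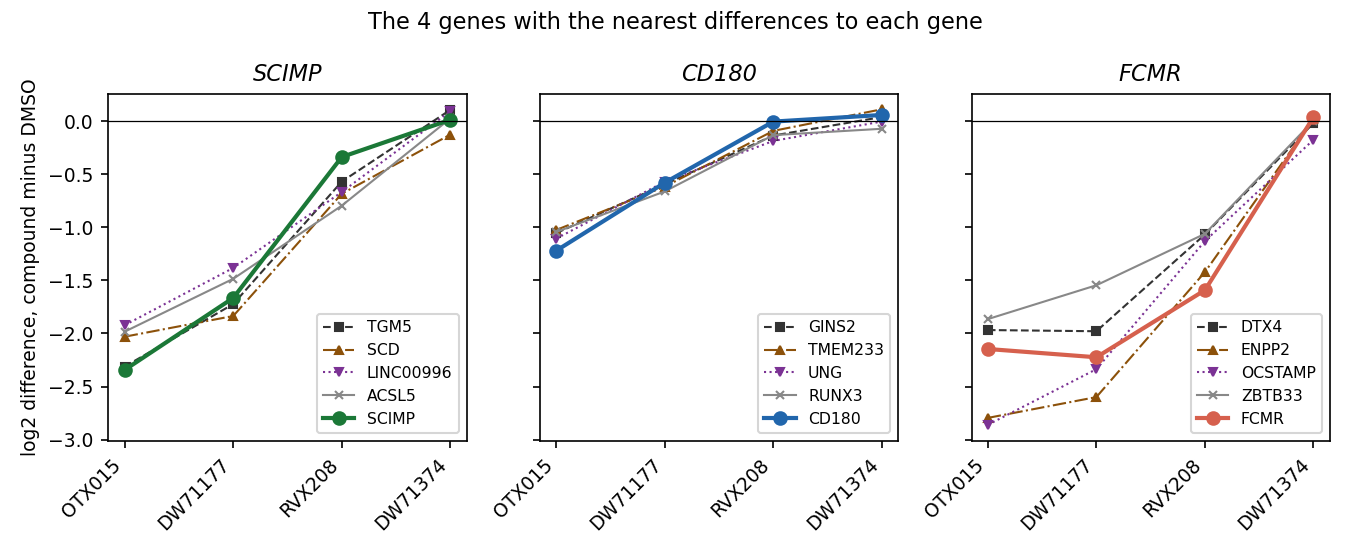
Log2 differences from DMSO of SCIMP, CD180 and FCMR (thick lines) and of the 4 genes nearest to each (thin lines) for 4 compounds. The lines join compounds for legibility only. With RVX208 the CD180 group lies between -0.19 and 0.00, and the FCMR group falls by at least 1.06. The neighbours were picked on these same differences, RVX208 included, so that contrast follows from the choice.

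Partner genes came from 8 lists of 129 genes, of which 83 other than SCIMP, CD180 and FCMR were measured. These genes were not part of the choice of the 3 and were tested. The lists were chosen with earlier results of these data known, so their counts may not be independent of these arrays. With OTX015, limma called 29 of the 83 (34.9%), 13 higher and 16 lower, where 25.7% of all genes were called, 11.2% higher and 14.5% lower. With DW71177 it called 28 (33.7%), 16 higher and 12 lower, against 19.8% of all genes, 9.95% higher and 9.88% lower. With RVX208 it called 8 (9.64%), 4 higher and 4 lower, against 6.52%, 3.41% higher and 3.11% lower. With DW71374 limma called 0 of the 83, with 4 at an unadjusted p under 0.05, and 0% of all genes. The median difference of the 83 genes was 0.03 with OTX015 and -0.02 with DW71177, against 0.00 and -0.01 over all genes. Between DW71177 and OTX015, 1 of the 83 genes was called, LY86, which was higher with DW71177, against 1.26% of all genes, 1.07% higher and 0.182% lower.

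Of 14 measured RP105 and Toll-like receptor genes, 2 rose and 3 fell with OTX015, 3 rose and 2 fell with DW71177, and 1 rose and 1 fell with RVX208. The share called was 35.7%, 35.7% and 14.3%, against 25.7%, 19.8% and 6.52% of all genes. LY86, the partner of CD180, was at 7.89, 7.93 and 7.96 with OTX015, 8.19, 8.22 and 8.25 with DW71177, 8.42, 8.51 and 8.54 with RVX208, 8.31, 8.34 and 8.49 with DW71374, and 8.30, 8.30 and 8.31 in DMSO. It was lowest with OTX015, apart from all other groups, and fell by 0.38 ± 0.059 (limma adjusted p = 0.00024). With DW71177 it differed by -0.08 ± 0.059 (adjusted p = 0.41) and with RVX208 by 0.18 ± 0.059 (adjusted p = 0.085 in limma, and 0.016 at the lowest among genes at 5 or above or with trend and robust variance). The direct difference of DW71177 from OTX015 was 0.30 ± 0.059 (limma adjusted p = 0.031). That call was lost without any single DW71177 or OTX015 array, at adjusted p = 0.06 to 0.1, and from the 6 arrays alone (0.29).

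TLR5, the flagellin receptor, was higher by 0.83 ± 0.064 (OTX015), 0.55 ± 0.064 (DW71177) and 0.56 ± 0.064 (RVX208) (limma adjusted p = 4.2e-07, 3.1e-05 and 0.00021). The TLR5 signal was dim in DMSO, at a mean of 4.55, against 5.39 with OTX015. TLR2, the receptor for bacterial lipoproteins, fell by 0.37 after OTX015, 0.33 after DW71177 and 0.44 after RVX208 (SE 0.085 each, limma adjusted p = 0.005, 0.013 and 0.0068). The TLR2 call with DW71177 was lost without DMSO replicate 2 (adjusted p = 0.052) or DW71177 replicate 2 (0.056). UNC93B1, which carries endosomal Toll-like receptors to their compartment, fell by 0.30 with OTX015 and by 0.28 with DW71177. LY96, the co-receptor of TLR4 for lipopolysaccharide, rose by 0.50 with OTX015 and 0.74 with DW71177, at a dim level of 3.02 and 3.26 against 2.52 in DMSO. TLR4 itself was also dim, at 4.93 with DW71177 against 4.50 in DMSO, a rise of 0.42 ± 0.13 (limma adjusted p = 0.037). The TLR4 call was lost without DMSO replicate 1 (0.15), DMSO replicate 3 (0.09), DW71177 replicate 1 (0.083) or DW71177 replicate 2 (0.16), and with OTX015 TLR4 differed by 0.27 ± 0.13 (adjusted p = 0.18).

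Downstream of these receptors, 3 of 13 measured adaptor and kinase genes were called with OTX015, 2 higher and 1 lower, and 3 with DW71177, also 2 higher and 1 lower. That is 23.1% of the list, near the 25.7% and 19.8% of all genes. With RVX208 1 was called, lower, 7.69% against 6.52% of all genes. IRAK1, a kinase recruited by the adaptor MYD88, had the largest change of the list. Its signal was 6.36, 6.36 and 6.38 with OTX015, 6.41, 6.47 and 6.49 with DW71177, 6.71, 6.90 and 6.92 with RVX208, and 7.33, 7.33 and 7.35 in DMSO. IRAK1 was below DMSO on every one of those arrays, by 0.97 ± 0.060, 0.88 ± 0.060 and 0.49 ± 0.060 on the log2 scale (limma adjusted p = 5.8e-08, 3.6e-07 and 0.00027). MYD88 differed by 0.11 after OTX015, -0.06 after DW71177 and 0.09 after RVX208 and was not called (limma adjusted p = 0.31, 0.63 and 0.5). MAP3K7, the kinase TAK1, rose by 0.21 ± 0.061 with OTX015 and 0.25 ± 0.061 with DW71177, and TOLLIP, an inhibitor of the pathway, by 0.26 ± 0.074 with OTX015. With OTX015 the MAP3K7 call was lost without DMSO replicate 2 (adjusted p = 0.051), DMSO replicate 3 (0.052) or OTX015 replicate 3 (0.063). The TOLLIP call was lost without DMSO replicate 2 (0.08), OTX015 replicate 1 (0.059) or OTX015 replicate 3 (0.052).

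Of 4 named binding partners of SCIMP, LYN rose with OTX015, DW71177 and RVX208, and CSK fell with OTX015 and DW71177. GRB2 and BLNK were not called with any of these compounds. Over all genes 25.7%, 19.8% and 6.52% were called with the 3 compounds, and 4 genes are too few to set against those shares. LYN, the kinase that phosphorylates SCIMP, was 9.93 to 9.99 on the OTX015 arrays, 9.87 to 9.89 with DW71177, 9.68 to 9.77 with RVX208 and 9.32 to 9.44 in DMSO. LYN thus rose by 0.57 ± 0.052 after OTX015, 0.48 ± 0.052 after DW71177 and 0.33 ± 0.052 after RVX208 (limma adjusted p = 2.2e-06, 1.8e-05 and 0.0017). CSK, which inhibits kinases of the LYN family, fell by 0.43 ± 0.054 with OTX015 and by 0.27 ± 0.054 with DW71177 (limma adjusted p = 3.9e-05 and 0.0025). With RVX208 CSK was not called, except under 2 of 22 alternatives (lowest limma adjusted p = 0.033). GRB2 was not called, with 9.64 to 9.66 on the OTX015 arrays, 9.62 to 9.66 with DW71177 and 9.71 to 9.80 in DMSO (limma adjusted p = 0.11 and 0.1). Among genes at 5 or above in a group, and with trend and robust variance, GRB2 was called lower with both (lowest limma adjusted p = 0.0072 and 0.0064). BLNK was dim at 3.58 with OTX015 and 3.60 in DMSO. FGR, another kinase of the LYN family, fell by 0.99, 0.61 and 0.63 with OTX015, DW71177 and RVX208 (SE 0.12 each, limma adjusted p = 2.1e-05, 0.0017 and 0.0054). BTK, a kinase of B cell and myeloid receptors, fell by 0.47 with OTX015 and by 0.30 with DW71177. In all, of 12 measured genes of this list 1 rose and 3 fell with OTX015 and with DW71177, 33.3% against 25.7% and 19.8% of all genes, and 1 rose and 1 fell with RVX208, 16.7% against 6.52%.

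Among 7 measured transmembrane adaptor genes related to SCIMP, 1 rose and 2 fell with OTX015, and 1 rose and 1 fell with DW71177 and with RVX208. The share called was 42.9%, 28.6% and 28.6%, against 25.7%, 19.8% and 6.52% of all genes. PAG1, which anchors CSK at the membrane, rose by 0.72 ± 0.077 after OTX015, 0.64 ± 0.077 after DW71177 and 0.35 ± 0.077 after RVX208 (limma adjusted p = 8e-06, 4.1e-05 and 0.015). LAT, an adaptor of T cell and Fc receptor signalling, fell by 0.49, 0.32 and 0.30 with OTX015, DW71177 and RVX208 (SE 0.071 each, limma adjusted p = 0.00011, 0.0052 and 0.02). With RVX208 the PAG1 call was lost without DMSO replicate 1 (0.071), DMSO replicate 3 (0.057) or RVX208 replicate 2 (0.069). The LAT call was lost there without DMSO replicate 1 (0.081), DMSO replicate 2 (0.069), RVX208 replicate 2 (0.075) or RVX208 replicate 3 (0.081). HCST, the adaptor DAP10, fell by 0.59 ± 0.10 with OTX015 (limma adjusted p = 0.00058), and with DW71177 it differed by -0.18 ± 0.10 (adjusted p = 0.3). The 7 measured genes of the tetraspanin and MHC class II list were all tetraspanins, 4 of which rose and 1 fell with OTX015, and 5 rose and 1 fell with DW71177. Over all genes 11.2% rose and 14.5% fell with OTX015, and 9.95% and 9.88% with DW71177. With RVX208 limma called 0 of the 7, with 5 at an unadjusted p under 0.05, against 6.52% of all genes. CD37 rose by 0.37 with OTX015 and 0.32 with DW71177, CD81 by 0.28 and 0.24, CD53 by 0.19 and 0.27, and CD82 by 0.70 and 0.85. CD151, named after its values were seen, was the one that fell, by 0.21 with OTX015 and by 0.24 with DW71177 (limma adjusted p = 0.02 and 0.011). From the 6 arrays alone the CD53 call with OTX015 was lost (limma adjusted p = 0.055).

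Of 10 measured Fc and polymeric immunoglobulin receptor genes limma called 0 with OTX015, where 1 had an unadjusted p under 0.05, 1 with DW71177 and 0 with RVX208, where 2 did. Over all genes 25.7%, 19.8% and 6.52% were called, and with 10 genes the counts are not read as a difference from those shares. The call with DW71177 was TRIM21, a cytosolic antibody receptor, at 0.25 ± 0.067 (limma adjusted p = 0.017), and it was lost without DMSO replicate 1 (0.077), DW71177 replicate 2 (0.072) or DW71177 replicate 3 (0.06). PIGR, which carries IgA and IgM across epithelia, was dim, though it met the level minimum of 5 in a group. It differed by -0.32 ± 0.14 with OTX015 and -0.42 ± 0.14 with RVX208 (limma adjusted p = 0.11 and 0.091). PIGR was called with OTX015 without DMSO replicate 2 (0.04), and with RVX208 without RVX208 replicate 3 and among genes at 5 or above (lowest 0.034). FCRL6 and FCRLA differed by 0.12 and 0.18 with OTX015 and were not called (limma adjusted p = 0.43 and 0.29). Of 5 measured death receptor genes, 2 rose and 1 fell with OTX015, 2 rose with DW71177 and 1 rose with RVX208, against 11.2%, 9.95% and 3.41% of all genes higher and 14.5% lower with OTX015. CFLAR, which encodes the caspase-8 inhibitor cFLIP, rose by 0.79 ± 0.079 with OTX015 and 0.56 ± 0.079 with DW71177 (limma adjusted p = 4.6e-06 and 0.00015). With RVX208 CFLAR rose by 0.28 ± 0.079 (limma adjusted p = 0.049), and that call was lost without any single DMSO, RVX208, DW71374 or OTX015 array, at adjusted p = 0.054 to 0.16. TRADD rose by 0.33 with OTX015 and 0.32 with DW71177, and FAIM differed by -0.24 ± 0.13 with OTX015 (limma adjusted p = 0.25). FADD fell by 0.21 ± 0.058 with OTX015 (limma adjusted p = 0.014), and this call was lost without DMSO replicate 3 (0.068) or OTX015 replicate 2 (0.053), after quantile normalization (0.064) and with the mean of all its features (0.14).

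Among 15 measured transcription factor genes of myeloid and B cells, 1 rose and 5 fell with OTX015, 1 rose and 4 fell with DW71177, and 0 were called in limma with RVX208, where 4 had an unadjusted p under 0.05. Over all genes 11.2% rose and 14.5% fell with OTX015, 9.95% and 9.88% with DW71177, and 6.52% were called with RVX208. IRF4, IRF5 and IRF8, interferon regulatory factors that act in Toll-like receptor responses and in myeloid and B cell development, fell by 1.05, 0.92 and 0.77 with OTX015 and by 0.78, 0.63 and 0.59 with DW71177 (limma adjusted p of 1.3e-07, 5.3e-07 and 2.4e-07, and of 4e-06, 2.8e-05 and 4.5e-06). With RVX208 they differed by -0.22, -0.22 and -0.10 (limma adjusted p = 0.087, 0.092 and 0.32). IRF4 and IRF5 were called there among genes at 5 or above (lowest adjusted p over the alternatives 0.023 and 0.029), IRF4 also with trend and robust variance and IRF5 also without RVX208 replicate 1. The direct differences of DW71177 from OTX015 were 0.27, 0.29 and 0.18 and did not pass (limma adjusted p = 0.083, 0.076 and 0.15). All 3 passed among genes at 5 or above and with trend and robust variance (lowest limma adjusted p = 0.013, 0.018 and 0.0088). SPI1, which encodes PU.1, fell by 0.22 ± 0.059 with OTX015 (limma adjusted p = 0.012) and differed by -0.15 with DW71177 (0.11, and 0.035 at the lowest under the same pair of alternatives) and by -0.01 with RVX208 (0.94). The SPI1 call was lost without DMSO replicate 3 (0.058) or OTX015 replicate 2 (0.053). SPIB, a relative of PU.1, fell by 0.35 with OTX015 and by 0.36 with DW71177, calls that were lost without DMSO replicate 2 (0.055 and 0.059) and, for DW71177, without DW71177 replicate 2 (0.058).

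**Figure D4:**
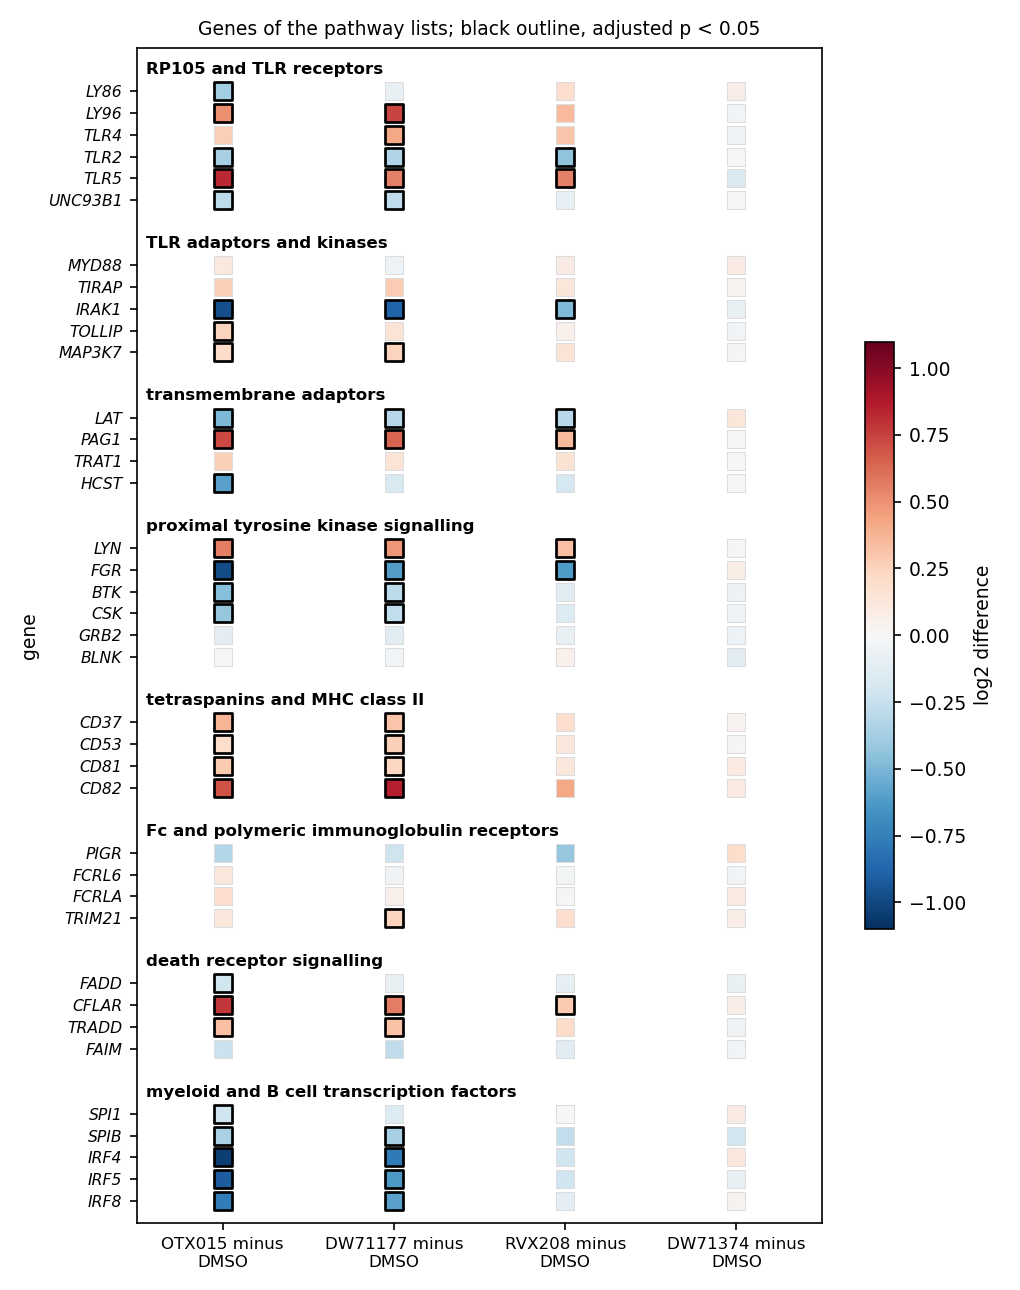
Log2 differences from DMSO (colour, red higher and blue lower with the compound) of named partner genes in 8 lists for 4 compounds; a black outline marks a limma call at an adjusted p under 0.05. With DW71374 no gene is outlined, and LYN, PAG1, TLR5 and CFLAR are higher while IRAK1, FGR, LAT and TLR2 are lower with OTX015, DW71177 and RVX208.

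Most measured myeloid markers were lower where SCIMP and FCMR were lower, and with RVX208 they were lower where CD180 was not. Of 7 measured myeloid markers, 1 rose and 5 fell with OTX015, where 11.2% of all genes rose and 14.5% fell. With DW71177 also 1 rose and 5 fell, against 9.95% and 9.88% of all genes. With RVX208 4 fell and 0 rose, against 3.11% and 3.41% of all genes. The mean level of that list was 6.96 to 6.98 on the OTX015 arrays, 6.99 to 7.04 with DW71177, 7.27 to 7.31 with RVX208, 7.69 to 7.73 with DW71374 and 7.59 to 7.72 in DMSO. The median difference of the 7 markers was -1.02 with OTX015, -1.06 with DW71177 and -0.36 with RVX208. Between DW71177 and OTX015 limma called 1 of the 7, higher with DW71177, against 1.07% of all genes higher. FLT3 was not called with any compound, differing by 0.07 after OTX015, 0.02 after DW71177 and 0.02 after RVX208. The part of these marker changes in the levels of SCIMP, CD180 and FCMR was not tested. Of 7 measured T and NK cell markers, NKG7 fell with OTX015 and RVX208, and NKG7 and CD2 with DW71177, which is 14.3%, 14.3% and 28.6% of the list against 14.5%, 3.11% and 9.88% of all genes. Of 4 epithelial and stromal markers VIM alone was called, higher with OTX015.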

How the data were processed

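The deposited table held log2 array signals for 44629 features on 15 arrays. The log2 scale was inferred from the values. The quartiles of the arrays nearly coincide, from which a normalization between arrays by the authors was inferred. The sources used here name neither its method nor the software or build. Features were named through the platform annotation (15835 with 1 gene, 28794 unnamed there). Where several features named a gene, the one with the highest mean was used, which left 14812 genes. SCIMP, CD180 and FCMR, and the lists, were chosen with earlier results of these data known.

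All 15 arrays entered a single limma fit (version 3.58.1, R 4.3.3, default lmFit and eBayes) with a mean per group, which left 10 residual degrees of freedom. Two-sided p-values received the Benjamini-Hochberg adjustment across the 14812 genes, and a gene was called at an adjusted p under 0.05. No level filter was applied, and arrays give no counting depth, so their number limits the precision. Named partner genes were up to 4 per list with the smallest p for OTX015, those called with RVX208, DW71374 or between DW71177 and OTX015, and genes that define the pathway. Alternatives were other feature rules, quantile and median scaling, a level minimum of 5, trend and robust variance, the arrays of a comparison alone, a replicate block and leaving out each array. The level of 5 was set with values of these data known.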

Additional observations from a re-analysis of the deposited data

How the results depend on the processing

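The differences of SCIMP, CD180 and FCMR moved by at most 0.033 under quantile normalization, median centring, the mean of all features and the replicate block, and by at most 0.10 with any array left out. RVX208 against DMSO gave 966 calls, 8 of them list genes. There were 1602 and 20 among genes at 5 or above in a group, 1485 and 17 with trend and robust variance, 609 and 5 from the 6 arrays alone, and 564 to 1050 and 5 to 9 with an array left out. DW71177 against OTX015 gave 186 calls and 1 list gene. There were 593 and 7 among the brighter genes, 497 and 6 with trend and robust variance, 1 and 0 from the 6 arrays alone, and 71 to 139 and 0 to 1 with an array left out. Quantile normalization called 2 list genes there. DW71374 against DMSO gave 0 to 1 calls with an array left out. OTX015 and DW71177 against DMSO stayed within 1.5 times under the alternatives run. From the 6 arrays alone, the calls of FADD and SPI1 with OTX015 (adjusted p = 0.071 and 0.051), TLR4, TRIM21 and SPIB with DW71177 (0.1, 0.087 and 0.089) and LAT, PAG1 and CFLAR with RVX208 (0.064, 0.061 and 0.066) were also lost in limma, where fewer arrays estimate the spread. Median centring moved CFLAR with RVX208 to 0.056.

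The titles number the replicates alike in every group. Same-numbered arrays did not deviate together, with r of -0.087 to 0.098 over 30 pairs and 0 of them over 0.1. Arrays of different numbers gave -0.095 to 0.144. Such correlations cannot show whether same-numbered wells were handled together. For 7 of 15 arrays the best match had the same number. With the replicate block DW71177 against OTX015 gave 107 calls and 0 list genes (LY86 at an adjusted p of 0.057 in limma), and CFLAR with RVX208 was at 0.067. Arrays give no counts, and dim features such as FCMR with OTX015 limit what folds show.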
